A study of Drosophila melanogaster with 38 samples.

Results

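The X-chromosomal binding sites of MSL2 that lie far from the strongest entry sites of the dosage compensation complex were examined in Drosophila melanogaster. They were chosen by position alone: a peak of the authors' list of other X peaks was a member when its midpoint lay more than 50 kb from the midpoint of the nearest high-affinity site (HAS) on X. The rule held for 223 of the 680 other X peaks (32.8%), out of 2524 distinct intervals in the 3 deposited lists. A further 341 other X peaks lay 5 to 50 kb from a HAS (called nearer X peaks here), 116 lay within 5 kb, 135 HAS were on X, and 1669 peaks of the autosomal list lay on 2L, 2R, 3L, 3R and 4. The members are called far X peaks.

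The series held 38 chromatin immunoprecipitation libraries of larvae of the third instar, 19 female and 19 male, with 26 immunoprecipitates, 12 inputs and 1 library per group. MSL2 was precipitated only through a FLAG tag, in msl-2227/msl-2km larvae that carried tub-Gal4 with UAS-msl-2::3Flag, in which a ubiquitous driver expresses the tagged protein in mutants of the endogenous gene; the untagged FLAG control was msl-2227/km over CyO-GFP, with no transgene. The other groups were White-eyed (w1118) Oregon-R larvae and msl-2-delta-7/10 over CyO-GFP or msl-2-delta-7 over msl-2-delta-10 larvae, probed for histones, histone marks or MLE. Only the peak lists were analysed here. They give positions with no height, score or library, and the labels and notes do not name the libraries behind them or whether both sexes entered, so no level, depth or sex can be attached to a peak, and no marker of tissue could be checked.

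As background, MSL2 is the limiting protein of the male-specific lethal complex, which assembles with the roX RNAs on the male X and acetylates histone H4 at lysine 16 over active genes. High-affinity sites, usually rich in GA repeats and often in introns and 3′ ends of genes, are thought to be the places from which the complex reaches the surrounding chromosome. In the deposited lists HAS are those that overlap roX binding, so differences between HAS and far X peaks also describe how the authors divided the peaks.

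The sequences below are extremes of the class, shown for their long GA or CA repeats, for the core promoter element Motif 1 or for their distance from a HAS. They are not typical, as the median longest exact GA or TC run of the 223 far X peaks was 5 bases. The first 6 have the longest such runs, with runs of 6 bases or more in capitals, and the widest were taken where peaks tied at 11 bases. Sequences are 150 bases of the plus strand of X in dm6, 5′ to 3′, from RefSeq, and each is named by the gene of the nearest protein-coding transcription start site (TSS).
Trf2 (chrX:8421269-8421418, promoter, longest run 20 bases): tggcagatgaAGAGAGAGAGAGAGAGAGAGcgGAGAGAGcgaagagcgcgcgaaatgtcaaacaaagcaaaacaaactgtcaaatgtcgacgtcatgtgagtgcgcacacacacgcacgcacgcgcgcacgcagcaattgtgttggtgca
ct (chrX:7627253-7627402, intron, longest run 13 bases): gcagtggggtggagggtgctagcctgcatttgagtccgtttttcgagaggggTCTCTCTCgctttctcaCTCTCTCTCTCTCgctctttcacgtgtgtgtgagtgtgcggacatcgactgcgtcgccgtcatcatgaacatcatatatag
mab-21 (chrX:6013191-6013340, promoter, longest run 12 bases): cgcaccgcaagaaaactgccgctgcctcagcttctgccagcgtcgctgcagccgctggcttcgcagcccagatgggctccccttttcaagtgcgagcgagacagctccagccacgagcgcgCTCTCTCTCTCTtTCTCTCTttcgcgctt
CG7884 (chrX:19220521-19220670, promoter, longest run 12 bases): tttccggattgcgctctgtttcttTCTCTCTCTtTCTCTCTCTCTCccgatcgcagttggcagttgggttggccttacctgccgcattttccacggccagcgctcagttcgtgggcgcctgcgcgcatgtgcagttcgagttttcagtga
Mur2B (chrX:1617110-1617259, intron, longest run 11 bases): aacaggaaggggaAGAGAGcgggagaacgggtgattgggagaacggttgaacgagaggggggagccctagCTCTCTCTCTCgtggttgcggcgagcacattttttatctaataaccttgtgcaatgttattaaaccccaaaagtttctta
br (chrX:1610099-1610248, promoter, longest run 11 bases): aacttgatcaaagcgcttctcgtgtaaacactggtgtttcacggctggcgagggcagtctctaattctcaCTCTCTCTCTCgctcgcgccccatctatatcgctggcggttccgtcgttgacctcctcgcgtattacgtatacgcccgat

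The next sequences were picked after the values had been seen. Near Cph an exact CA or TG run of 22 bases is in capitals, the longest in far X peaks and equalled in a narrower peak near fz4, together with other CA or TG runs of 6 bases or more. In the peaks at CG9281 and Vps4, the widest with Motif 1 inside the peak, its core is in capitals.
Cph (chrX:7124673-7124822, intergenic, 196183 bp from a HAS): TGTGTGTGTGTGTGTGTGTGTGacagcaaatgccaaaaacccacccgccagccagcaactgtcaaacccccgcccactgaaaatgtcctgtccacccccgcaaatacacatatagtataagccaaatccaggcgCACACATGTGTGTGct
CG9281 (chrX:15710562-15710711, promoter): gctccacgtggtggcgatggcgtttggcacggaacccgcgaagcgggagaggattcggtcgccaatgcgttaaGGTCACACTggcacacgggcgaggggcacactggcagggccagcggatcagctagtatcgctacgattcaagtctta
Vps4 (chrX:17907622-17907771, promoter): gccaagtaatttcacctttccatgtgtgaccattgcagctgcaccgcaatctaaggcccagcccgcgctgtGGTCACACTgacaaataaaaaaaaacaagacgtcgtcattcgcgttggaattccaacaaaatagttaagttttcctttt

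The peak at the start of N (Notch, a receptor of cell-cell signalling) and the last peak before the end of the assembled X, nearest to ATbp, are shown because they lie farthest from any HAS among promoter peaks and among all peaks, at 400182 and 436036 bp. Neither window holds an alternating GA or TC run of 6 bases.
N (chrX:3134698-3134847, promoter): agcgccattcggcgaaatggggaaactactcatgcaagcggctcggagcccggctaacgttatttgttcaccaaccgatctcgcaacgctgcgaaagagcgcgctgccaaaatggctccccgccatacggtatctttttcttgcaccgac
ATbp (chrX:23536203-23536352, intergenic): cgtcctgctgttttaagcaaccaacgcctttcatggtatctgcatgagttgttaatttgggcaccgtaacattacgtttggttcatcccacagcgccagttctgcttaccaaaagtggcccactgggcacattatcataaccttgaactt

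The distance to the nearest HAS midpoint, which chose the members, ranged from 50136.5 to 436036 bp with a median of 86908 bp. Of the 223 far X peaks, 76 lay 50 to 75 kb away, 58 lay 75 to 100 kb away, 71 lay 100 to 200 kb away and 18 lay farther. Just inside the threshold were the peaks nearest to anox (50136.5 bp), CG3847 (51514 bp), CG1801 (51698.5 bp) and Lst8, which encodes a subunit of TOR complexes (52433 bp). Just outside were those nearest to CG2865 (49671.5 bp), the nuclear receptor gene Hr4 (49670.5 bp), east (49518 bp) and CG4119 (49078.5 bp).

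As a class, far X peaks were sparser than nearer X peaks. They numbered 16.6 per Mb (95% exact Poisson interval 14.5 to 18.9) over 13.4 Mb, or 57.2% of X. Nearer X peaks numbered 39.0 per Mb (35.0 to 43.4), and autosomal peaks 15.1 per Mb (14.4 to 15.9). Distance to a HAS defines these classes, so the densities are a description with no test, and the intervals cover counting error only.

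By distance, density was 22.3 peaks per Mb at 50 to 75 kb and 25.2 at 75 to 100 kb. It was 15.0 at 100 to 150 kb, 15.6 at 150 to 200 kb and 6.89 (4.08 to 10.9) beyond 200 kb. Over the same bins protein-coding genes numbered 86.8, 100, 71.9, 58.2 and 50.2 per Mb, highest and lowest in the same bins as the peaks. Among nearer X peaks, density fell from 66.3 per Mb at 5 to 10 kb to 24.2 at 30 to 50 kb. The latter lies between the values at 50 to 75 and 75 to 100 kb, so density did not step down at the threshold. Genes fell from 210 per Mb at 5 to 10 kb to 89.6 at 30 to 50 kb. The stretch of X past its last HAS went the other way, with 12 far X peaks (30.6 per Mb) and 0 protein-coding genes. The part of gene density in the peak density was not tested.

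**Figure D1:**
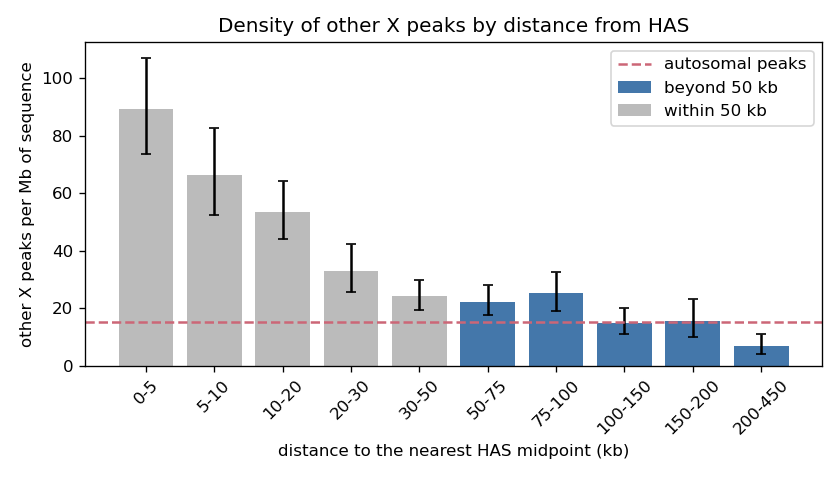
Other X peaks per Mb of X (y axis) by distance to the nearest HAS midpoint in kb (x axis), with 95% exact Poisson intervals and the autosomal density of 15.1 per Mb as a dashed line. The bins beyond 50 kb lie between 6.89 and 25.2 peaks per Mb, while the innermost bin holds 89.3 peaks per Mb.

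Most far X peaks sat at transcription start sites. A peak counts as promoter when its midpoint lies within 500 bp of an annotated TSS, and 136 of 223 did so (61.0%, 95% Wilson interval 54.5 to 67.2). Introns held 54, intergenic sequence 15, noncoding exons 7, coding exons 5, 3′ UTRs 5 and a 5′ UTR 1. Of the promoter peaks, 32 are called divergent here, as starts on both strands lay within 500 bp of the midpoint. The order of the starts was not checked, so overlapping starts that face each other are included. Among the 131 peaks within 500 bp of a protein-coding TSS, 72 lay upstream and 59 at or downstream of it, 81 lay within 100 bp, and the median signed distance was -10.5 bp.

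HAS were at promoters less often, in 28.9% (39 of 135). The difference was 32.1 percentage points (95% Newcombe interval 21.7 to 41.4; two-sided Fisher's exact test, adjusted p = 3.88e-08 over 24 tests). HAS fell instead into coding exons and 3′ UTRs, at 46.7% against 4.48% (10 of 223) of far X peaks, a difference of -42.2 points (-50.8 to -33.2; adjusted p = 1.69e-20 by Fisher's exact test). Nearer X peaks were at promoters in 71.3% (243 of 341), 10.3 points more than far X peaks, with an interval of the far minus nearer difference from -18.2 to -2.33 and an adjusted p of 0.0634, so this difference did not pass the threshold of 0.05. The autosomal promoter share was 66.5%, and the far minus autosomal difference of -5.52 points (-12.4 to 1.06; adjusted p = 0.249, Fisher's exact test) did not pass either. Other X peaks within 5 kb of a HAS, a class that was not tested, were at promoters in 63.8% (74 of 116). The tests count peaks as independent, and with no replicate list a p describes the peaks listed, not the spread between animals.

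**Figure D2:**
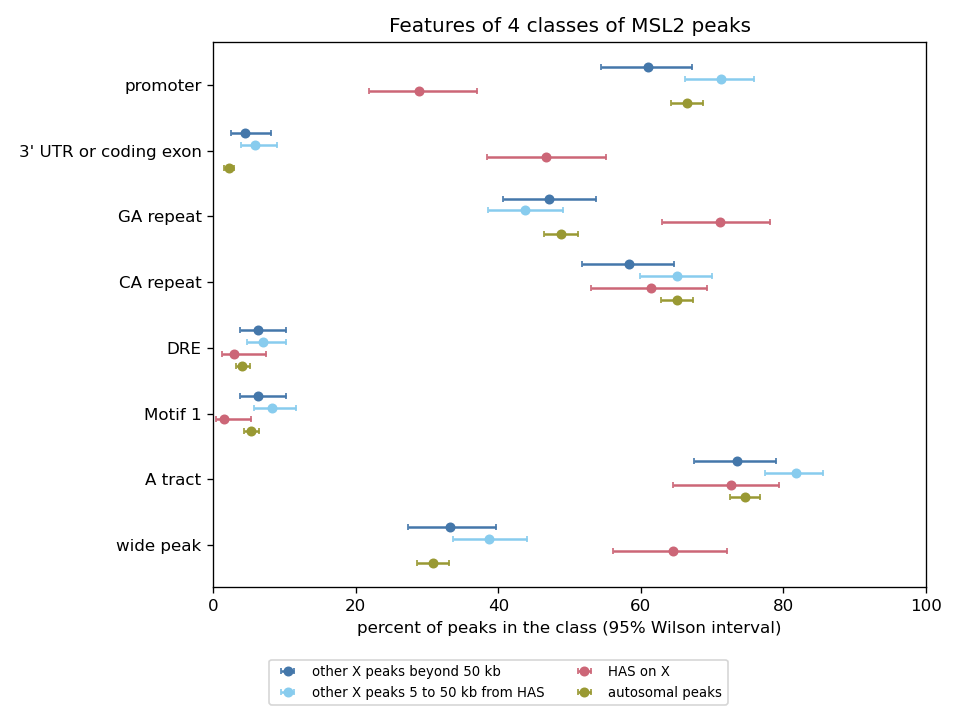
Percent of peaks with each of 8 features (x axis) in far X peaks, nearer X peaks, HAS on X and autosomal peaks, with 95% Wilson intervals. Far X peaks and HAS stand 32.1 points apart at promoters, and HAS hold more GA repeats (71.1% against 47.1%) and more wide peaks (64.4% against 33.2%).

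GA repeats, the hallmark of MSL2 entry sites, were less frequent in far X peaks than in HAS. The word GAGAGAGA with up to 1 mismatch, on either strand, was looked for in 500 bp around each midpoint, and 47.1% of far X peaks (105 of 223) held it against 71.1% of HAS (96 of 135). The difference was -24.0 points (-33.5 to -13.6; adjusted p = 6.03e-05, Fisher's exact test). In contrast, nearer X peaks held it in 43.7% (3.39 points, -4.96 to 11.7; adjusted exact p = 0.656) and autosomal peaks in 48.8% (-1.69 points, -8.56 to 5.28; adjusted p = 0.764). With no mismatch allowed, 14.8% of far X peaks and 21.5% of HAS held it and the difference of -6.68 points no longer passed (adjusted exact p = 0.305). Among promoter peaks alone and among peaks away from promoters alone, the differences of -18.5 and -18.6 points had adjusted exact p = 0.170 and 0.0634.

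The CA repeat (CACACACA, up to 1 mismatch, either strand) was more frequent than the GA repeat, in 58.3% of far X peaks (130 of 223). The shares were 65.1% in nearer X peaks, 61.5% in HAS and 65.1% in autosomal peaks, and none of these 3 differences passed (adjusted p from 0.156 to 0.696). Both repeats were held by 70 far X peaks, the GA repeat only by 35, the CA repeat only by 60, and neither by 58.

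Core promoter elements were rare. The DRE, bound by DREF (TATCGATA, exact), was in 14 far X peaks (6.28%), and Motif 1, bound by M1BP (GGTCACACT, exact), was likewise in 14 (6.28%). Motif 1 shares the letters CACAC with the CA repeat. For Motif 1 the HAS share was 1.48% (2 of 135), a difference of 4.80 points (0.281 to 8.92; adjusted exact p = 0.122), and with peaks within 5 kb merged it was 6.92 points (adjusted p = 0.0366). Among promoter peaks alone the shares were 10.3% of far X peaks and 5.13% of 39 HAS (adjusted exact p = 0.705). None of the DRE differences passed (adjusted p from 0.316 to 0.901). The A tract, 8 A with up to 1 mismatch, was in 73.5% of far X peaks and 81.8% of nearer X peaks (-8.28 points, -15.5 to -1.32; adjusted exact p = 0.0847).

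The core promoter elements lay at promoters. All 14 peaks with Motif 1 and 13 of the 14 with the DRE were at promoters. These were the starts of N, kdn (citrate synthase), PpV (a protein phosphatase), Nf-YC (a subunit of the NF-Y factor), RhoU, eIF2alpha (a translation initiation factor) and Vps4 for Motif 1, among others, and of su(w[a]), Lst8, ATP7 (a copper transporter) and mRpS25 for the DRE. The peak at eIF2alpha held both. The exception for the DRE was a peak in an intron of Ubr3. Among the 136 promoter far X peaks the DRE share was 9.56%, below the 11.9% of 748 promoters beyond 50 kb from HAS without a peak. For Motif 1 the shares were 10.3% and 3.61%. Neither difference was tested.

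GA and CA repeats were found more often away from promoters. Of the 87 far X peaks away from promoters, 57.5% held the GA repeat and 65.5% the CA repeat, against 40.4% and 53.7% of the 136 promoter peaks. Among intron peaks the counts were 38 and 42 of 54, whereas 6 and 3 of 15 intergenic peaks held them. Of these 15, 8 lay past the last HAS of X, where 2 held the GA repeat and 0 the CA repeat. All 3 with the CA repeat were among the 7 before it. For comparison, the GA repeat occurred in 24.9% of 26854 windows of 500 bp that tile X beyond 50 kb from HAS and in 22.7% of 748 promoters there without a peak. The CA repeat occurred in 44.0% and 40.8% of these, the DRE in 1.59% and 11.9%, and Motif 1 in 0.536% and 3.61%. These shares are a description and were not tested.

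Within the class, the promoter share was 65.8% at 50 to 75 kb from a HAS (50 of 76), 65.5% at 75 to 100 kb, 56.3% at 100 to 200 kb and 44.4% (8 of 18) farther out. The bins beyond 100 kb include the 12 peaks past the last HAS of X, at 111597 to 436036 bp, none of them at a promoter. Divergent promoter peaks held the GA repeat in 25.0% (8 of 32) and Motif 1 in 18.8%, and the other 104 promoter peaks in 45.2% and 7.69%. The 37 far X peaks of 500 bp or more held the GA repeat in 73.0%, and the 81 under 200 bp in 42.0%. In all, 28 far X peaks had an exact GA or TC run of 8 bases or more inside the peak. These are counts within a single list and were not tested.

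**Figure D3:**
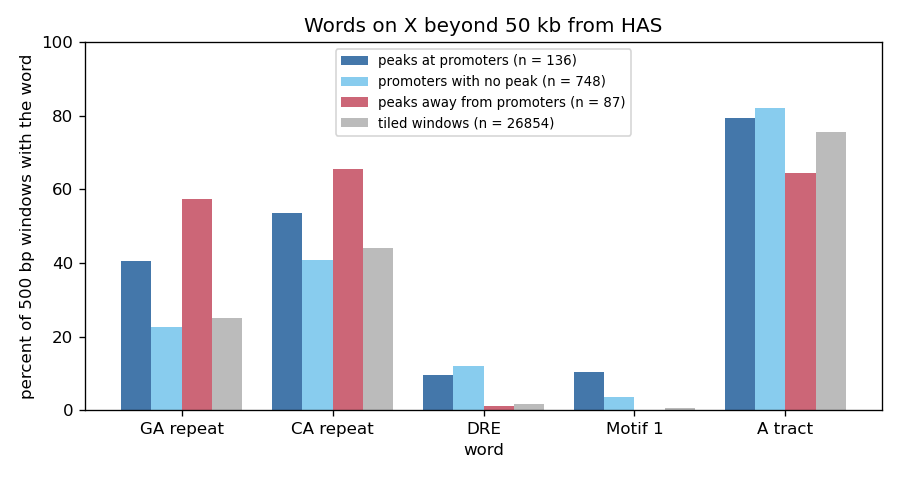
Percent of 500 bp windows holding each of 5 words (x axis groups) for far X peaks at promoters, far X peaks away from promoters, promoters without a peak and windows tiling the same parts of X. Motif 1 is at 10.3% in promoter peaks and 0 of 87 elsewhere, and the GA repeat at 40.4% and 57.5%.

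Far X peaks were narrow. Their median width was 238 bp (150 to 1962 bp), beside 253 bp in nearer X peaks, 234 bp in autosomal peaks and 440 bp in HAS. Widths of 300 bp or more were found in 33.2% (74 of 223) against 64.4% of HAS, a difference of -31.3 points (-40.8 to -20.7; adjusted p = 7.58e-08, Fisher's exact test). Against nearer X peaks (38.7%) and autosomal peaks (30.8%) the differences of -5.53 points (-13.4 to 2.62) and 2.39 points (-3.88 to 9.16) did not pass. Across the 223 far X peaks the Spearman correlation of width and distance to a HAS was 0.00208, a description over points that share 1 chromosome.

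The widest far X peak, 1962 bp, lay at the start of ksh. Another, of 1669 bp, covered the start of CoRest, a subunit of a histone-modifying corepressor, and also that of Idh3a. A peak of 1329 bp lay in an intron of Cph, which encodes a zinc finger protein, 1 of 1245 bp lay at disco, a zinc finger patterning gene, and 1 of 1073 bp lay in an intron of br. Wide peaks also lay at norpA, the phospholipase C of phototransduction (944 bp), and in an intron of Hr4 (942 bp), an ecdysone response receptor. The remaining peak over 1 kb, 1008 bp, overlapped a 28S ribosomal RNA pseudogene near the end of X.

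**Figure D4:**
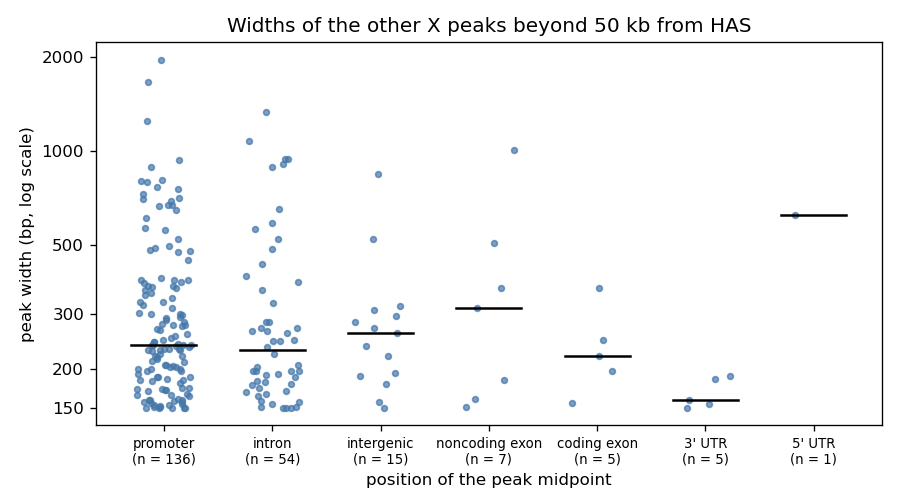
Width of each far X peak in bp (y axis, log scale) by the annotation at its midpoint (x axis), with 1 point per peak and a line at each median. Promoter peaks reach 1962 bp around a median of 239 bp and intron peaks 1329 bp around 229 bp, while the 5 peaks in 3′ UTRs lie between 150 and 190 bp.

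Some genes carried more than 1 far X peak. Counting peaks over the gene body and 1 kb to either side, br, the Broad transcription factor of the ecdysone response, carried 9, with widths of 906, 486, 564, 1073, 386, 587, 151, 152 and 202 bp. Mur2B, which overlaps br on the opposite strand, shares these 9 and had 2 more (11 in all), so most of these peaks cannot be assigned to a single gene. Of the 9, 4 were at promoters and 5 in introns of either gene, 7 held the GA repeat and 6 the CA repeat. The peak of 906 bp lay upstream of br, in an intron of Mur2B, and the peak of 151 bp lay at a start of Mur2B.

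Cph carried 6 (2 at promoters, 4 in introns), of which 5 were shared with the antisense noncoding gene lncRNA:CR44357. Hr4 carried 4, all in introns, of 151 to 942 bp. The 4 at Trf2, a TBP-related factor, were all at promoters of Trf2 or lawc, of 206, 754, 357 and 196 bp. Trf2 and lawc share 3 of these. The peak of 357 bp was centred 13 bp downstream of a lawc start and had no Trf2 start within 1 kb. Ubr3 carried 4, as did CG14434, and CG14200 and Pfrx each had the same 3, among them the widest peak. Usp2, a deubiquitinase, carried 3.

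**Figure D5:**
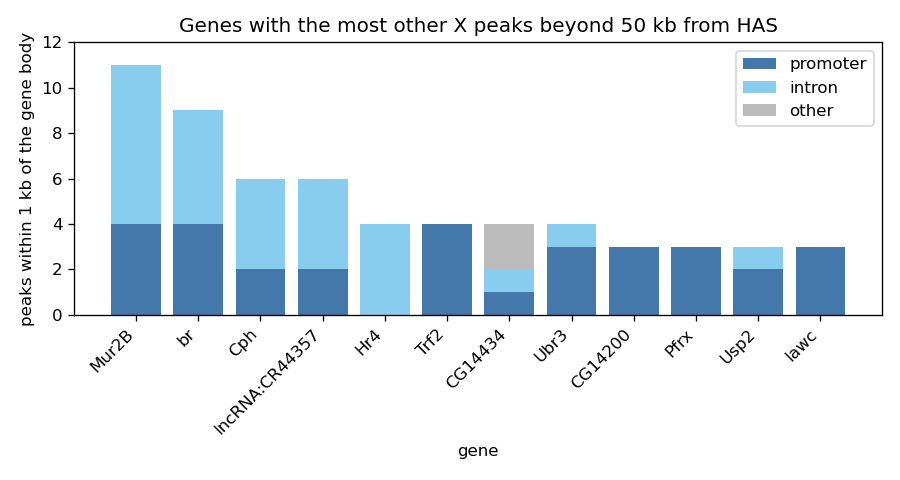
Number of far X peaks on 12 genes with most (bar height; of genes tied at 3, the 4 with the largest summed peak width), over the gene body and 1 kb to either side. Bars are split by whether the peak midpoint lies at a promoter of any gene, in an intron of any gene or elsewhere. Mur2B has 11 and br 9, those of Hr4 are all in introns and those of Trf2 all at promoters, and overlapping genes share peaks.

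Far X peaks often had neighbours. Another listed MSL2 peak of any class lay within 5 kb, between midpoints, of 48.9% (109 of 223), against 54.8% of nearer X peaks and 38.4% of autosomal peaks by the same measure, a description. Chained at 5 kb to other far X peaks only, they formed 156 groups, 115 of 1 peak and 41 of several. The largest held 7 over 13538 bp at br, 6 over 14585 bp from Gss2, a glutathione synthesis gene, to CG6847, and 5 over 8322 bp at CG43736 and CG14434. Beyond 50 kb from HAS, X falls into 81 stretches, of which 32 held no far X peak and the 10 with most held 111 of the 223. The stretches differed in length, with a median of 41.3 kb for those without a far X peak and 179 kb for the others. The part of length in these counts was not tested. The stretch at br held 11 in 109 kb, and the stretch between the HAS at 6670 kb and 7321 kb, with Inx2, fz4 and Cph, held 23 in 551 kb.

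At protein-coding genes, 176 of the 941 X genes with a TSS beyond 50 kb from a HAS had a far X peak within 1 kb of it (18.7%). By the same rule, 327 of 1013 genes with a TSS 5 to 50 kb away had a nearer X peak (32.3%), and 1570 of 11749 autosomal genes had an autosomal peak (13.4%). The gene lists below are read against 18.7%. They hold few genes, so a share differing from it is no result about the list.

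Of 17 patterning transcription factor genes with such a TSS, 6 had a far X peak (br, disco-r, disco, unc-4, B-H1 and acj6). At br, 6 peaks lay within 1 kb of a TSS, at disco-r 2 (625 and 385 bp), and at unc-4, a neuronal homeobox gene, 1 of 487 bp. B-H1, a homeobox gene of eye and external sense organs, had 1 of 266 bp and acj6, a POU factor of olfactory neurons, 1 of 159 bp. Hr4, ct and run had none at a TSS, although Hr4 and ct carried peaks in introns. Of 11 signalling genes, 3 had a peak: N (200 bp), the Wnt receptor gene fz4 (291 bp) and the Notch regulator dx (163 bp, the peak it shares with RpL7A). That shared peak is centred 33 bp upstream of the start of RpL7A and does not reach the start of dx. Of 3 ecdysone response genes, br and the adhesion gene Fas2 (206 bp) had peaks.

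Cytosolic ribosomal protein genes had a peak at 4 of 7 (RpS14b, RpL35, RpL7A and RpS6), of which RpL35 had the widest at 391 bp and RpS6 1 of 150 bp. The peak counted for RpL35 is centred 60 bp downstream of the start of Rab18, its nearest TSS, and does not reach the start of RpL35. Mitochondrial ribosomal protein genes had a peak at 2 of 3, mRpS14 (363 bp, shared with Naa15-16) and mRpS25 (276 bp). The chromatin genes Trf2, Tlk, a kinase of chromatin assembly (240 bp), and Set2, the H3K36 methyltransferase (192 bp, at a start shared with CG1998), had peaks at 3 of 3. Of 16 neural genes 4 had a peak, norpA, the gap junction gene Inx2, the kinase gene mnb and the neuropathy gene sws. Of 6 snoRNA genes 1 had a peak, snoRNA:Or-aca2 (the peak it shares with RpS6), and of 12 tRNA genes 0. The X genes of the complex itself, 3 in the list, all lay within 50 kb of a HAS.

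Some far X peaks lay outside the span of the HAS. Past the last HAS of X, between 23211748 and 23536436, lay 12, of which 4 were in ribosomal RNA pseudogenes and 8 intergenic, with none at a promoter. They lay 105837 to 430275 bp from a protein-coding TSS, 2 held the GA repeat and 0 of 12 the CA repeat, and their median GC was 40.2%, against 47.0% in all far X peaks. All 3 far X peaks that are over 50% repeat-masked were among them. The part of repeat mapping in these peaks was not tested. Without the 12, the promoter share was 64.5% of 211 and the density 16.2 per Mb, the promoter difference from nearer X peaks was -6.81 points, and each of the 24 comparisons stayed on its side of the threshold.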

How the data were processed

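The deposited data are 3 lists of MSL2 peak intervals (unit: other, coordinates in dm6), which the authors made from immunoprecipitation libraries of larvae. Tools credited in the submitters' processing notes are MACS2 2.1.1.20160309.0, bedtools and Bowtie2 2.3.0.1, with dm6 and BDGP6 as builds, and thresholds and repeat handling are not given there. The lists carry no height, score or depth, so peak strength and precision per peak are unknown. Repeated intervals were counted once (170 HAS rows gave 159), and 16 peaks on Y or unplaced sequence were left out. Distances ran between midpoints. Annotation was Ensembl release 115 on BDGP6 and sequence was RefSeq dm6.

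Shares of 8 measures in far X peaks were compared with 3 classes by two-sided Fisher's exact tests, Benjamini-Hochberg adjusted over 24 (scipy 1.17.1, statsmodels 0.14.6, Python 3.11.15), with Newcombe, Wilson and exact Poisson intervals at 95%. The tests were checked on simulated data. Alternatives changed the distance, windows, mismatches, widths and merging. Named genes were the 12 with most far X peaks, the nearest to the 8 widest, up to 4 of each list with a peak within 1 kb of a TSS, those of the 6 longest GA runs, the 4 farthest and 4 to either side of the threshold; others were named after their values were seen. The members and lists were chosen with earlier results of these data known. The unused value columns numbered 0.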

Additional observations from a re-analysis of the deposited data

How the results depend on the processing

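No paired analysis was possible because the lists name no library and each group has 1 library. Differences are far X peaks minus the other class in percentage points. The far against HAS differences in promoter, coding exon or 3′ UTR and wide peak shares kept their direction and passed under every alternative run. The GA repeat difference from HAS no longer passed with 0 mismatches (-6.68), in promoter peaks only (-18.5) or away from promoters (-18.6). Differences that passed only under an alternative, with their sign kept, were the promoter share against nearer X peaks at 100 kb (-15.8, adjusted exact p = 0.0221), coding exon or 3′ UTR share against autosomal peaks at 30 kb (2.73, adjusted p = 0.0473) and Motif 1 against HAS with peaks merged (6.92).

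The other changes of sign had no reported call. With 0 mismatches for repeats and 1 for elements, GA against autosomal was 2.99, CA against HAS 2.95 and against autosomal 2.96, Motif 1 against autosomal -0.813, A tract against HAS -0.754 and against autosomal 11.2, which passed (adjusted exact p = 0.00164). In 200 bp windows, GA against nearer was -0.850, CA against HAS 4.49, DRE against nearer 1.69, and A tract against HAS -2.62 and autosomal 1.15. Over whole peaks, GA against nearer was -0.00658, DRE against nearer 1.14, and A tract against HAS -18.3, which passed (adjusted exact p = 0.00488), and autosomal 2.51. In promoter peaks only, DRE against nearer was 0.505, and A tract against HAS -2.64 and autosomal 3.65. Away from promoters, CA against HAS was 9.27, Motif 1 against autosomal -0.537 and A tract against HAS -4.38. At 30 kb A tract against autosomal was 1.57, and at 100 kb it was 0.625, with coding exon or 3′ UTR against nearer 1.69 and GA against nearer -0.109. With peaks merged, GA against autosomal was 1.49, Motif 1 against nearer 1.11 and A tract against autosomal 1.00. In peaks of at least 200 bp, promoter against autosomal was 0.943, coding exon or 3′ UTR against autosomal -0.241 and A tract against autosomal 1.02. Without X past the last HAS, an alternative chosen after seeing the data, GA against autosomal was 0.0434 and CA against HAS 0.130. The cause of these changes was not tested.

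Density beyond 100 kb was 11.5 peaks per Mb, and the share with a neighbour was 26.0% within 2 kb and 66.8% within 10 kb. In all, 204 values kept their direction and call, or for values with no test lay within their error, and 33 changed sign. Among the 204, the GA repeat difference from HAS was -38.9 over whole peaks and the CA repeat difference from HAS was -13.1 over whole peaks and -20.7 in promoter peaks. Whole peaks give HAS more sequence to search, as their median width was 440 bp against 238 bp in far X peaks. With no depth in the lists, weak sites missed by the peak caller cannot be counted.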

Other observations

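The share of promoter peaks differed along X. Far X peaks of the first 5 Mb were at promoters in 37.5% (15 of 40), and those between 5 and 10 Mb in 70.7% (41 of 58). The shares were 69.4% (25 of 36) from 10 to 15 Mb, 71.2% (47 of 66) from 15 to 20 Mb and 34.8% (8 of 23) beyond, where the 12 peaks past the last HAS lie. The GA repeat was held by 55.0% in the first 5 Mb, 55.2% from 5 to 10 Mb, 36.1% from 10 to 15 Mb, 48.5% from 15 to 20 Mb and 26.1% beyond, and the CA repeat by 72.5%, 67.2%, 58.3%, 54.5% and 21.7%. These shares are a description and were not tested.

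Noncoding genes carried far X peaks at 16 of 215 long noncoding or other ncRNA genes with a TSS beyond 50 kb (7.44%), and 6 of 42 pseudogenes (14.3%) did so. The longest stretch between neighbouring HAS spans 1171 kb. No far X peak lay before the first HAS of X, although 12 lay past the last.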
